A study of Mus musculus with 21 samples.

Results

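SHP2, the tyrosine phosphatase encoded by Ptpn11, was followed here together with 8 genes of its RAS signaling route. They were Ptpn6, Gab2, Grb2, Sos1, Nras, Nf1, Cbl and Rasa1. The 9 genes were taken by symbol from mouse count tables that each list 45706 genes, and all 9 were among the 19555 genes that passed the filter on low counts. The libraries came from 3 sorted fractions of mouse hematopoietic tissue. LSK cells (lineage negative, Sca1 and cKit positive) are the stem and progenitor fraction of bone marrow (BM), and CD11b+ cells are mature and maturing myeloid cells, taken with magnetic beads from BM and from spleen. Each fraction held 2 MxCre libraries, 2 libraries labelled Ptpn11D61Y/+ and 3 libraries of leukemic MxCre;Ptpn11D61Y/+ mice at stage 3, the terminal stage (S3), which makes 21 libraries.

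The genotypes differ in what becomes of 1 Ptpn11 allele. MxCre mice carry the interferon-inducible Cre and 2 normal Ptpn11 alleles. Ptpn11D61Y/+ mice carry the mutant allele behind a Neo-Stop cassette and no Cre, so by design this allele is silent and the mice resemble a heterozygous knockout. In MxCre;Ptpn11D61Y/+ mice, Cre removes the cassette and the mutant allele is expressed. All mice, controls included, were injected with poly I:C, which switches on the Mx promoter in hematopoietic cells and also in other interferon-responsive tissues. Strain and age at collection are not in the labels, and the labels tell S3 libraries apart by bare numbers (540, 815 and 768 for LSK, 540, 640 and 815 for both CD11b+ fractions). The p-values below therefore measure the spread between these libraries.

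Growth factor receptors recruit SHP2 through docking proteins such as GAB2. There it works with GRB2 and the exchange factor SOS1 to load RAS proteins with GTP. NF1 and RASA1 are GTPase activating proteins that return RAS to its inactive form, CBL is a ubiquitin ligase that removes activated receptors, and SHP1, encoded by Ptpn6, is the close relative of SHP2 that mostly dampens signaling in blood cells. Mutations of PTPN11, NRAS, NF1 and CBL are classical lesions of juvenile myelomonocytic leukemia (JMML), the childhood disease that these mice model.

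The labelled D61Y change replaces the aspartate at codon 61, in the N-terminal SH2 domain that holds SHP2 inactive. The reference coding stretch of codons 52 to 70 is shown because every genotype of the study is defined by this position. It lies in exon 3 of transcript Ptpn11-201 at chr5:121167971-121168027 on the minus strand of GRCm38. It is given 5′ to 3′ with codon 61 (121167998 to 121168000) in capitals.
Ptpn11 codons 52 to 70: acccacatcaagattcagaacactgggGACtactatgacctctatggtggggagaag
The stretch is the same in the other annotated transcript checked here. The count tables give 1 total per gene, so reads from the normal and the mutant allele cannot be told apart in any value below.

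By GRCm38 coordinates, Ptpn11 spans bases 121130533 to 121191397 of chromosome 5 (minus strand, 7492 exon bases) and Ptpn6 bases 124720707 to 124738714 of chromosome 6 (minus strand, 2802 exon bases). Gab2 lies on chromosome 7 from 97081586 to 97308946 (6168 exon bases), Grb2 on chromosome 11 from 115644045 to 115708597 (2916 exon bases) and Sos1 on chromosome 17 from 80393751 to 80480453 (10594 exon bases). Nras lies on chromosome 3 from 103058285 to 103067914 (5331 exon bases) and Nf1 on chromosome 11 from 79339693 to 79581612 (15850 exon bases). Cbl lies on chromosome 9 from 44142976 to 44234049 (12345 exon bases) and Rasa1 on chromosome 13 from 85214780 to 85289130 (7320 exon bases). The lengths matter for what follows, since the members run from short to very long transcripts. Ptpn6 shares 195 exon bases with the antisense gene Gm20531, which never exceeded 49 counts. Rasa1 shares 12 exon bases with Ccnh on the opposite strand, and Ccnh had up to 4362 counts. Whether the counting used strand is not given in the sources used here, so the Rasa1 values carry this uncertainty.

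Several libraries stood apart before any comparison was made. Total counts per library ran from 34992610 to 104509425. All 7 LSK libraries detected at least 22718 genes, whereas MxCre replicate 1 of BM CD11b+ detected 14885, MxCre replicate 1 of spleen CD11b+ 14641 and S3 library 815 of BM CD11b+ 14761. Xist is expressed from the inactive X chromosome of females and Y-linked genes in males, yet another 3 libraries held both. These were MxCre replicate 2 of BM CD11b+ (2834 Xist and 1900 Y-linked counts), S3 library 540 of BM CD11b+ (2780 and 958) and S3 library 540 of spleen CD11b+ (712 and 4225). The LSK library numbered 540 had 1 Xist count and 15172 Y-linked counts, and the spleen library of Ptpn11D61Y/+ replicate 1 had 4753 Xist counts where the LSK and BM libraries of that number had 17 and 1. Whether such libraries are mixtures or carry exchanged labels could not be settled, so values under these labels may not belong wholly to the group named. Equal numbers were not read as equal animals. Among the LSK libraries, S3 libraries 768 and 815 were Xist-positive and the other 5 were not.

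The fractions matched their labels by most markers. Summed levels in CPM (reads of a gene scaled to a fixed library total) of 8 LSK markers were 1578 to 2678 in LSK and 29.1 to 440.9 in the CD11b+ libraries. Kit had a median of 636 CPM in LSK, 16.1 in BM CD11b+ and 30.8 in spleen CD11b+, but Ly6a, which encodes Sca1, had 90.3, 29.8 and 121.7 CPM and did not separate LSK from spleen CD11b+ cells. Itgam, which encodes CD11b, had medians of 99.2, 540.3 and 254.2 CPM. Its libraries overlapped, with up to 168.5 CPM in LSK and as little as 132.4 in BM and 149.9 in spleen CD11b+. The LSK ranges of Ly6c2 and Csf3r also overlapped those of both CD11b+ fractions. That of Csf1r overlapped BM CD11b+, and that of Procr, an LSK marker, overlapped spleen CD11b+. All CD11b+ libraries contained erythroid RNA. The summed CPM of 8 erythroid markers, led by Hbb-bs and Hba-a1, was 13900 to 104400 in BM CD11b+, 472.4 to 25480 in spleen CD11b+ and 90.1 to 1844 in LSK. In bulk RNA, a change in the share of a cell type and a change of RNA per cell cannot be told apart, and the part of these other cells in the results below was not tested.

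Ptpn11 was ordered by genotype in LSK cells. On the log2 CPM scale its level was 6.79 and 6.86 in the MxCre libraries, 6.0 and 5.92 in the libraries labelled Ptpn11D61Y/+, and 7.26, 7.25 and 7.13 in S3 libraries 540, 768 and 815. The 3 groups did not overlap, with both Ptpn11D61Y/+ libraries lowest and all S3 libraries highest. Means were 6.82 ± 0.0486 (SD, n = 2), 5.96 ± 0.0583 (SD, n = 2) and 7.21 ± 0.0730 (SD, n = 3).

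The same order was not seen in CD11b+ cells. In BM CD11b+ cells Ptpn11 was 4.46 and 5.42 in MxCre, 5.53 and 5.78 in Ptpn11D61Y/+, and 5.97, 6.89 and 4.72 in S3 libraries 540, 640 and 815. Here the libraries labelled Ptpn11D61Y/+ lay above both MxCre libraries, against their design, while S3 ranged from the second lowest to the highest library. In spleen CD11b+ cells the levels were 3.87 and 5.26 in MxCre, 5.96 and 5.14 in Ptpn11D61Y/+, and 6.52, 7.13 and 5.90 in S3 libraries 540, 640 and 815. All S3 libraries lay above both MxCre libraries, and the Ptpn11D61Y/+ libraries overlapped with both groups. Because Ptpn11 was lower under the label Ptpn11D61Y/+ in LSK cells alone, these libraries are referred to by their label throughout. The lowest Ptpn11 count of any library was 576.

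**Figure D1:**
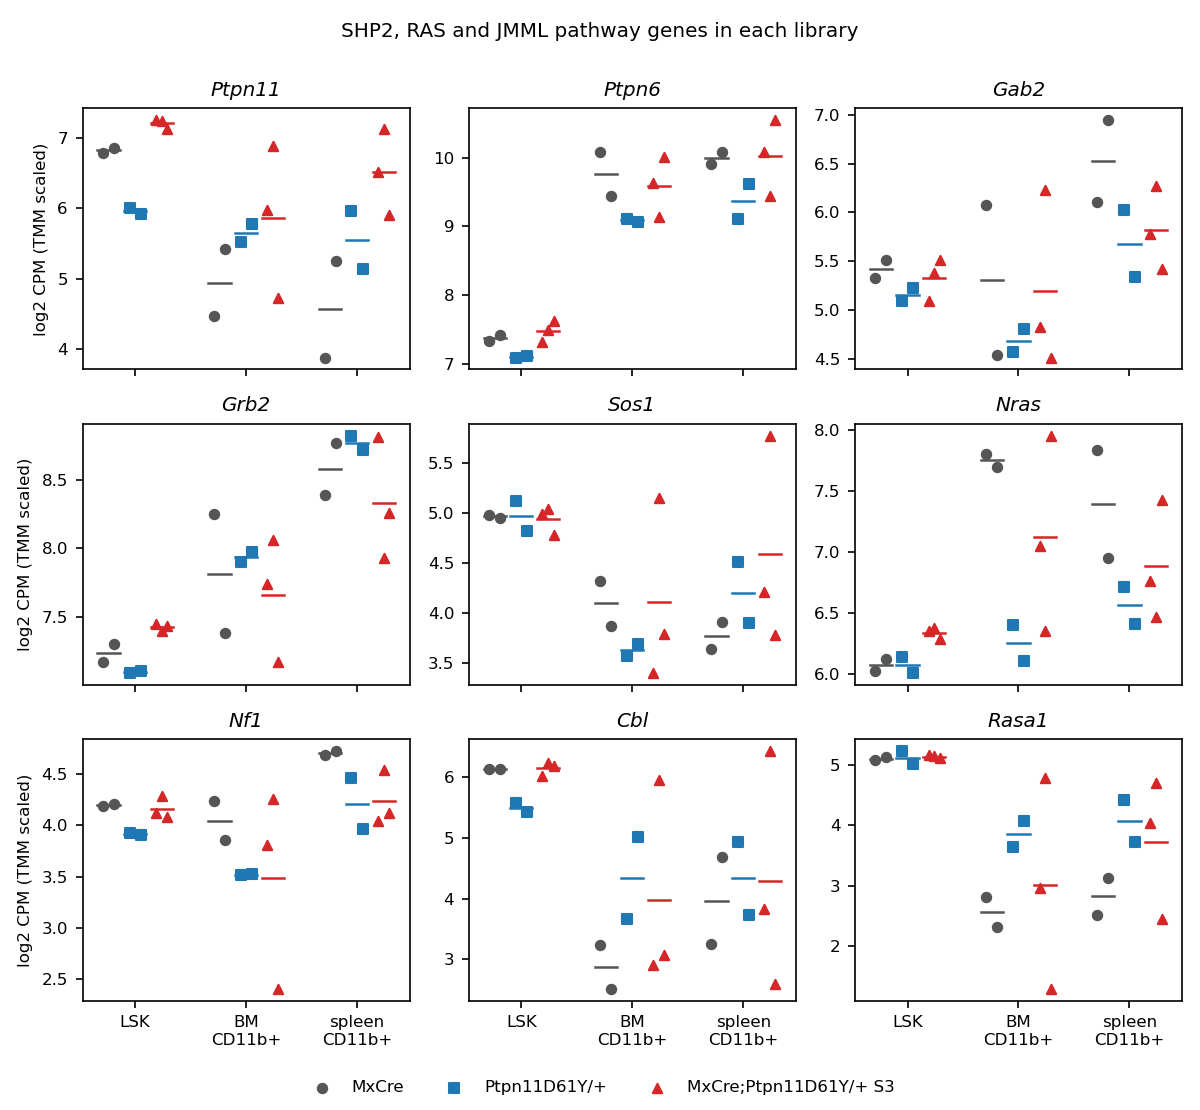
Level of each of the 9 genes (log2 CPM, TMM scaled) in every library, by fraction and genotype, with 1 symbol per library and a line at each group mean. Ptpn11 in LSK separates into 3 tight groups between 5.92 and 7.26, while Ptpn11 in the S3 libraries of BM CD11b+ runs from 4.72 to 6.89.

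The exact two-sided permutation test cannot go below 0.1 for 3 libraries against 2, or below 0.33 for 2 against 2. In LSK cells Ptpn11 reached these limits in every comparison. S3 minus MxCre was 0.39 log2 CPM (exact p = 0.1), S3 minus Ptpn11D61Y/+ 1.25 (p = 0.1), and Ptpn11D61Y/+ minus MxCre −0.86 (p = 0.33). In BM CD11b+ cells the differences were 0.92 (exact p = 0.4), 0.21 (p = 0.7) and 0.71 (p = 0.33) in the same order. In spleen CD11b+ cells they were 1.95 (exact p = 0.1), 0.97 (p = 0.3) and 0.99 (p = 0.667).

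The fractions differed in how tightly replicates lay together. The pooled within-genotype SD of Ptpn11 was 0.0641 log2 CPM in LSK, 0.846 in BM CD11b+ and 0.715 in spleen CD11b+. Its spread followed that of genes at large, whose median SD was 0.185, 0.879 and 0.744. A model of all 21 libraries gives each gene 1 spread for all fractions. In that fit (edgeR's quasi-likelihood test, adjusted over 19555 genes), none of the 9 members passed an adjusted p of 0.05 in LSK cells, where 0.0307% of all genes passed for S3 minus MxCre, 0.0972% for S3 minus Ptpn11D61Y/+ and 0.0614% for Ptpn11D61Y/+ minus MxCre. At an unadjusted p under 0.05 the same 3 comparisons held 777, 1123 and 330 genes. Among the members, only Ptpn11 for S3 minus Ptpn11D61Y/+ had an unadjusted p under 0.05 by edgeR. Limma-voom called 19, 171 and 5 genes and DESeq2 117, 242 and 100, with 0 members in each. The genotypes were therefore also compared within the 7 LSK libraries alone, a fit chosen after the data had been seen, with 18057 genes tested and 4 residual degrees of freedom.

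In the LSK libraries alone, S3 exceeded Ptpn11D61Y/+ in 5 of the 9 members, where 37.1% of all genes tested were called. Ptpn11 was 2.35-fold higher, with a log2 fold change of 1.23 (SE 0.0748, adjusted p = 0.000714). Cbl followed at 0.63 (SE 0.0851, adjusted p = 0.00256), with levels of 6.03, 6.24 and 6.19 log2 CPM in S3 against 5.58 and 5.43. Ptpn6 (0.36, adjusted p = 0.0233), Grb2 (0.31, adjusted p = 0.0114) and Nras (0.25, adjusted p = 0.0292) rose by less. Gab2 (0.16), Nf1 (0.23), Sos1 (−0.05) and Rasa1 (−0.00) did not pass the test. Ptpn11 and Cbl kept their calls without either library of the label Ptpn11D61Y/+ and without any single S3 library, whereas Ptpn6, Grb2 and Nras lost theirs without Ptpn11D61Y/+ replicate 1 (adjusted p = 0.113, 0.0724 and 0.0535) and without replicate 2 (0.172, 0.0967 and 0.319). Without S3 library 768, Ptpn6 (adjusted p = 0.0648) and Nras (adjusted p = 0.0987) were not called either.

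Compared to MxCre, the libraries labelled Ptpn11D61Y/+ were lower in 2 members, against 1.77% of all genes called. The background depends on the libraries in the fit, since the 4 libraries compared, taken alone, gave 2508 calls of 17688 genes in place of 319 of 18057. Ptpn11 fell by 0.85 on the log2 scale (1.8-fold, SE 0.0792, adjusted p = 0.0129). Cbl fell by 0.63 (SE 0.0919, adjusted p = 0.0263), from 6.14 in both MxCre libraries to 5.58 and 5.43. Ptpn6 (−0.27), Gab2 (−0.25), Nf1 (−0.27) and Grb2 (−0.13) had negative values that did not pass the test, and Sos1 (0.02), Nras (0.01) and Rasa1 (0.03) lay near 0. Leaving out any 1 of the 4 libraries left Ptpn11 between −0.90 and −0.79 but moved its adjusted p to between 0.0930 and 0.111, and that of Cbl to between 0.156 and 0.207.

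S3 exceeded MxCre in Ptpn11 and Nras, while 31.3% of all genes were called. Ptpn11 was higher by a log2 fold change of 0.38 (1.3-fold, SE 0.0725, adjusted p = 0.008). Nras, the RAS protein most often mutated in myeloid disease, was higher by 0.26 (SE 0.0710, adjusted p = 0.0292), with 6.35, 6.38 and 6.29 log2 CPM in S3 against 6.03 and 6.12 in MxCre. The other 7 members lay between −0.09 (Gab2) and 0.19 (Grb2), and Cbl was at 0.01. Without MxCre replicate 1 the adjusted p was 0.0978 for Ptpn11 and 0.272 for Nras, and without MxCre replicate 2 it was 0.0632 and 0.123. Nras was also lost without S3 library 768 (adjusted p = 0.0904).

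**Figure D2:**
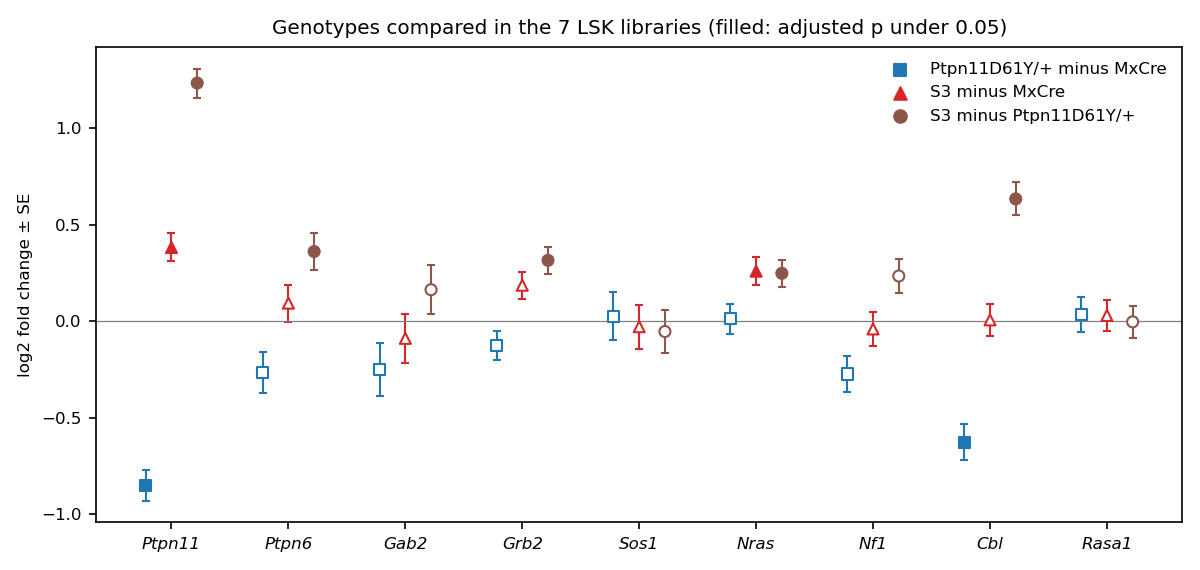
Log2 fold change (± SE) of each of the 9 genes between genotypes in the 7 LSK libraries, with filled symbols for an adjusted p under 0.05. Ptpn11 has the widest separation, from −0.85 for Ptpn11D61Y/+ minus MxCre to 1.23 for S3 minus Ptpn11D61Y/+, and Sos1 and Rasa1 sit near 0 in all 3 comparisons.

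Transcripts of other cells moved with genotype in the LSK gate. The 7 neutrophil markers, most abundantly Ngp, summed to 2528 and 2165 CPM in MxCre, 117.4 and 75.6 in Ptpn11D61Y/+, and 352.8, 564.6 and 1041 in S3 libraries 540, 768 and 815. The 6 monocyte and macrophage markers summed to 123.9 and 132.5 CPM in MxCre, 64.9 and 51.1 in Ptpn11D61Y/+ and 137.8 to 298.4 in S3. Both sums were lowest under the label Ptpn11D61Y/+, as Ptpn11 was. The 5 immature granulocyte markers, most abundantly Mpo, ran differently, with 2961 and 2408 CPM in MxCre, 4078 and 3850 in Ptpn11D61Y/+ and 6141 to 8716 in S3. The 8 erythroid markers summed to 1844 and 1011 CPM in MxCre and 90.1 to 203.7 in the other 5 libraries. The 8 LSK markers summed to 2559 and 2678 in MxCre, 2452 and 2573 in Ptpn11D61Y/+ and 1578 to 1723 in S3. The 8 CD11b+ myeloid markers summed to 3348 and 2787 CPM in MxCre, 913.6 and 785.2 in Ptpn11D61Y/+ and 1195 to 2703 in S3. The part of these shifts in the LSK genotype differences, of the members above or of the pathway genes below, was not tested.

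Other genes of the route were read from 8 lists of 70 genes, of which 69 were tested over all 21 libraries and 68 in the LSK libraries alone. In the latter fit, S3 minus Ptpn11D61Y/+ called 31 of 68 (45.6%), beside 37.1% of all genes, and for single lists the shares ran from 27.3% to 77.8%. It called 7 of 9 tested receptors with inhibitory motifs that dock SHP1 and SHP2, all higher, led by Pilra (3.75) and Pirb (2.35). Myeloid marker sums in LSK were also higher in S3 than under the label Ptpn11D61Y/+, and their part in these calls was not tested. Among the 7 other RAS proteins 3 rose and 1 fell, with Hras at 0.59 and Mras at −1.12. Exchange factors had 3 of 5 higher (Rasgrp4 2.27, Rasgrp1 2.19), and the GTPase activators with the SPRED proteins had 2 higher and 3 lower of 12 (Spred3 −1.04, Dab2ip −0.47). Adaptors and docking proteins had 4 higher and 1 lower of 13 (Grap 1.54, Grap2 1.32), with Gab1, the relative of Gab2, at −1.10. The RAF-MEK-ERK kinases and scaffolds had 3 of 11 higher (Map2k1 0.56, Map2k2 0.25), the CBL family 1 of 2 (Cblb 0.50), and the other tyrosine phosphatases 2 higher and 1 lower of 9 (Ptpro 2.65, Ptpn18 −0.53). The median of all genes in this comparison was 0.0312.

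For S3 minus MxCre the lists held 19 calls of 68 (27.9%), no more than the 31.3% of all genes. In that comparison 2 other RAS proteins rose, with Hras at 0.55, and Mras fell (−1.18). GTPase activators and SPRED proteins had 2 higher and 4 lower (Spred3 −0.79, Dab2ip −0.64). Adaptors had 3 higher and 1 lower (Gab1 −1.22, Grap2 0.93), the RAF-MEK-ERK list 3 higher and 1 lower (Ppp1cb 0.48, Map2k1 0.44), and the docking receptors 1 higher (Clec12a 1.39) and 1 lower (Cd300lf −0.92). Ptpn11D61Y/+ minus MxCre called 2 of the 68 (2.94%, beside 1.77% of all genes), Cd300lf (−2.81) and Siglece (−2.25), docking receptors of myeloid cells that were both lower. The medians of all genes were 0.0065 and 0.0066 in these comparisons. In the fit of all 21 libraries, 1 of the 69 genes was called in any LSK comparison, Pilra for S3 minus Ptpn11D61Y/+ (3.77, adjusted p = 0.0209).

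In BM CD11b+ cells no gene at all passed in the 3 genotype comparisons of that fit (0% called in each by edgeR), so no member did. At an unadjusted p under 0.05 there were 3022 genes for S3 minus MxCre, 1608 for S3 minus Ptpn11D61Y/+ and 4419 for Ptpn11D61Y/+ minus MxCre. Limma-voom called 19, 3 and 7 genes and DESeq2 908, 201 and 1707. These counts rest on single libraries. Without MxCre replicate 2, which held both Xist and Y-linked counts, edgeR called 2040 genes for S3 minus MxCre and 2852 for Ptpn11D61Y/+ minus MxCre, and without all 3 such libraries 1093, 32 and 2445, with 0 members in each. Without S3 library 815 it called 99 genes for S3 minus MxCre. The Ptpn11 estimates were 1.09 (SE 0.545), 0.45 (SE 0.532) and 0.64 (SE 0.579). For S3 minus MxCre the Ptpn11 estimate was 0.46 without S3 library 640, 0.70 without MxCre replicate 1 and 1.67 without MxCre replicate 2. For Ptpn11D61Y/+ minus MxCre it was 0.26 without MxCre replicate 1, 1.22 without MxCre replicate 2 and 0.02 with the length trend removed. Nras stood out by value, at 7.80 and 7.70 log2 CPM in MxCre, 6.40 and 6.10 in Ptpn11D61Y/+, and 7.05, 6.35 and 7.96 in S3. It had an unadjusted p under 0.05 in 2 of the 3 comparisons. Its difference between Ptpn11D61Y/+ and MxCre was −1.49 (SE 0.440, adjusted p = 0.164), and DESeq2 called it (−1.63, adjusted p = 0.0234). B cell marker sums in these BM libraries were 201.1 and 778 CPM in MxCre and 1011 and 1476 in Ptpn11D61Y/+. Monocyte and macrophage marker sums were 6583 and 387.5 in MxCre and 332.9 and 369.6 in Ptpn11D61Y/+. The part of these shifts was not tested. Without S3 library 640 the Ptpn11 estimate for S3 minus Ptpn11D61Y/+ turned to −0.18.

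In spleen CD11b+ cells the S3 minus MxCre difference of Ptpn11 was the largest of the 9 genotype contrasts, at a log2 fold change of 1.88 (SE 0.565, adjusted p = 0.0665), short of the threshold. Of all genes 4.19% were called in this comparison (296 higher and 523 lower, but 661 and 256 with scaling by library size alone), 0.00511% for S3 minus Ptpn11D61Y/+ and 5.11% for Ptpn11D61Y/+ minus MxCre (410 higher and 590 lower, 1429 and 278 by library size alone), and 0 of the 9 members in each. A fit of the 7 spleen libraries alone called 0 genes by edgeR in all 3 comparisons. Without S3 library 540, 640 or MxCre replicate 1 the S3 minus MxCre count was 267, 483 and 346 genes. Without Ptpn11D61Y/+ replicate 1, replicate 2, MxCre replicate 1 or replicate 2, the Ptpn11D61Y/+ minus MxCre count was 0, 442, 610 and 570, and without S3 library 815 S3 minus Ptpn11D61Y/+ called 47. Other settings gave more, with 1562, 41 and 2081 genes in the 3 comparisons without the 3 libraries of few detected genes, 1327, 6 and 1692 by limma-voom and 3350, 373 and 3329 by DESeq2. Unadjusted p-values under 0.05 numbered 4945, 1736 and 4836. DESeq2 called Ptpn11 in S3 minus MxCre (1.88, adjusted p = 0.0073), as did edgeR with the length trend removed (1.44, adjusted p = 0.0259), and limma-voom did not (1.94, adjusted p = 0.0535). Without the 3 libraries of few detected genes the estimate was 1.36 (adjusted p = 0.112). Without MxCre replicate 1, the lowest Ptpn11 library, it was 1.36 (adjusted p = 0.360). Without MxCre replicate 2 it was 2.75 (adjusted p = 0.0558). The S3 spleen libraries had erythroid sums of 8182 to 25480 CPM against 1443 and 472.4 in MxCre, and their part in the Ptpn11 difference was not tested.

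Nf1 and Nras separated groups by value in spleen without passing the test, and Sos1 and Cbl overlapped. Sos1, the exchange factor that GRB2 carries to the membrane, was 3.64 and 3.91 log2 CPM in MxCre and 4.21, 5.77 and 3.78 in S3 (difference 1.08, SE 0.545, adjusted p = 0.226). Nf1 was 4.69 and 4.72 in MxCre and 4.05, 4.54 and 4.12 in S3, all lower, with a difference of −0.45 (SE 0.390, adjusted p = 0.472). Nras was 7.83 and 6.95 in MxCre and 6.72 and 6.41 in Ptpn11D61Y/+ (difference −0.89, SE 0.435, adjusted p = 0.215). Cbl spanned 2.58 to 6.43 within the 3 S3 libraries, wider than any difference between its group means.

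Between Ptpn11D61Y/+ and MxCre, every member but Sos1 had the same sign in both CD11b+ fractions, with no call by edgeR with TMM scaling over all 21 libraries. Ptpn6, Rasa1 and Nf1, like Nras above, had groups that did not overlap in either fraction. With 2 libraries against 2, groups without overlap reach an exact permutation p of only 0.33 in a fraction. The share of all genes with equal signs, or without overlap, in both fractions was not computed. Nothing particular to the members is therefore read from these patterns. Ptpn6 was 10.1 and 9.44 log2 CPM in BM MxCre against 9.11 and 9.07 in BM Ptpn11D61Y/+, and 9.91 and 10.1 against 9.11 and 9.62 in spleen. The differences were −0.71 (SE 0.383, adjusted p = 0.266) and −0.61 (SE 0.382, adjusted p = 0.327). Rasa1 was 2.82 and 2.32 in BM MxCre against 3.63 and 4.07 in BM Ptpn11D61Y/+, and 2.52 and 3.13 against 4.42 and 3.72 in spleen. Its differences were 1.28 (SE 0.778, adjusted p = 0.313) and 1.26 (SE 0.775, adjusted p = 0.320). Rasa1 also was the member with the lowest count of any library, 64 in S3 library 815 of BM CD11b+.

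Of the 69 other pathway genes, in the fit of all 21 libraries, spleen S3 minus MxCre called 2 higher and 2 lower, beside 4.19% of all genes. The adaptors Grap2 (4.06) and Lat2 (2.52) rose, and the scaffold Ksr1 (−1.57) was among those that fell. Ptpn11D61Y/+ minus MxCre, where 5.11% of all genes were called, had 2 higher, Lat2 (2.62) and Grap (2.32), and 7 lower, among them Siglece (−2.03) and Cd300lf (−2.22) of the docking receptors, Mapk3 (−1.88) of the ERK cascade and Rasa2 (−1.52). The medians over the 69 genes were 0.160 and −0.207, beside 0.320 and 0.201 over all genes. None of these genes was called by edgeR in the 7 spleen libraries alone, where no gene was. The composition of the spleen libraries differed in the second comparison, with CD11b+ myeloid marker sums of 33670 and 60420 CPM in MxCre and 9724 and 12480 in Ptpn11D61Y/+, and B cell marker sums of 163.8 and 57.6 against 1570 and 1962. The part of this shift was not tested.

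Whether the S3 minus MxCre difference was the same in 2 fractions was tested directly. For BM CD11b+ against LSK cells, 0 of 9 members and 0% of all genes differed by edgeR (1587 genes at an unadjusted p under 0.05, with 4 genes called by limma-voom and 134 by DESeq2). For spleen CD11b+ against LSK cells, 0 of 9 members and 0.00511% of all genes differed (2614 at an unadjusted p under 0.05, 50 called by limma-voom and 773 by DESeq2). Without MxCre replicate 2 of BM CD11b+ the first count was 438 genes, and without the 3 libraries holding both Xist and Y-linked counts 248. Without MxCre replicate 2 of spleen CD11b+ the second was 215, without S3 library 815 of spleen CD11b+ 6, and without the 3 libraries of few detected genes 273. No member was among the calls of these fits. Ptpn11 gave 0.71 (SE 0.745, adjusted p = 0.819) and 1.5 (SE 0.748, adjusted p = 0.394). These estimates do not show that the difference is alike in the fractions, since the standard errors are wide.

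The fractions differed in most genes, and the members were called about as often as genes at large. In BM CD11b+ minus LSK, averaged over genotypes with equal weight, 58.4% of all genes were called and 7 of the 9 members. Ptpn6, Nras and Grb2 were higher in BM CD11b+ cells, and Ptpn11, Sos1, Cbl and Rasa1 were lower. In spleen CD11b+ minus LSK 59.9% of all genes and 6 of the 9 members were called, with Ptpn6, Grb2, Nras and Gab2 higher and Ptpn11 and Rasa1 lower. The median over the 9 members was −0.34 and 0.30, beside −0.17 and −0.14 over all genes tested. Of the genes called, 5243 were higher and 6175 lower in BM and 5537 and 6183 in spleen. Scaling by library size alone moved the medians of all genes to −0.99 and −0.90 and the splits to 2706 and 9856 in BM and 3193 and 9375 in spleen, so that levels below are relative to TMM scaling.

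With TMM scaling, Ptpn6 had the largest fitted log2 fold change of the 9 members in both CD11b+ fractions. By medians, Cbl moved further in BM, from 6.14 log2 CPM in LSK to 3.23. The lowest, median and highest levels of Ptpn6 were 7.09, 7.34 and 7.62 log2 CPM in LSK. They were 9.07, 9.44 and 10.1 in BM CD11b+ and 9.11, 9.91 and 10.6 in spleen CD11b+. Every CD11b+ library lay above every LSK library. The share of all genes without overlap between these fractions was not computed, for Ptpn6 or for the members below. The log2 fold change was 2.19 in BM (SE 0.217, adjusted p = 9.69e-07) and 2.51 in spleen (SE 0.220, adjusted p = 2.93e-07). It was higher in all alternatives run, including scaling by library size alone (1.31 and 1.73).

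Ptpn11 moved the other way. It ran from 5.92 through 6.86 to 7.26 log2 CPM in LSK, from 4.46 through 5.53 to 6.89 in BM CD11b+ and from 3.87 through 5.90 to 7.13 in spleen CD11b+. The ranges overlapped. The LSK libraries labelled Ptpn11D61Y/+ lay among the higher CD11b+ libraries, and the CD11b+ libraries numbered 640 lay above both MxCre libraries of LSK. The log2 fold change was −1.07 in BM (SE 0.317, adjusted p = 0.00921) and −1.02 in spleen (SE 0.317, adjusted p = 0.0115), and both calls were lost with the length trend described below removed (−0.38 and −0.39).

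The upstream partners split. GRB2, the adaptor that joins SHP2 to SOS1, had Grb2 levels of 7.09 to 7.45 log2 CPM in LSK, 7.17 to 8.25 in BM CD11b+ and 7.93 to 8.82 in spleen CD11b+, the last above every LSK library. Its log2 fold change was 0.58 in BM (SE 0.196, adjusted p = 0.0178) and 1.32 in spleen (SE 0.199, adjusted p = 4.6e-05). Scaling by library size alone turned the BM value to −0.25, and the call was lost without MxCre replicate 1 of LSK (adjusted p = 0.0532) or of BM CD11b+ (0.0915) and without Ptpn11D61Y/+ replicate 2 of LSK (0.0523) or of BM CD11b+ (0.0501). Gab2, the docking protein, had medians of 5.32, 4.81 and 6.02 log2 CPM in LSK, BM CD11b+ and spleen CD11b+. It was called in spleen only (0.75, SE 0.295, adjusted p = 0.0369), and in 10 of the fits that left out 1 library this call was lost, with an adjusted p of up to 0.135 without Ptpn11D61Y/+ replicate 1 of spleen. It was lost in 15 of 24 alternatives in all, and by library size alone the value was 0.0051. Sos1 had medians of 4.98, 3.79 and 3.91, with a log2 fold change of −0.94 in BM (SE 0.317, adjusted p = 0.0183) and −0.67 in spleen (SE 0.315, adjusted p = 0.0754). Without the 3 libraries holding both Xist and Y-linked counts, the BM call of Sos1 was lost (−0.79, adjusted p = 0.0664).

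Of the RAS genes and their brakes, Nras was higher and Rasa1 lower in both CD11b+ fractions, and Cbl was lower in BM CD11b+ cells. Nras ran from 6.01 to 6.38 log2 CPM in LSK, from 6.10 to 7.96 in BM CD11b+ and from 6.41 to 7.83 in spleen CD11b+. The spleen libraries all lay above the LSK libraries, and the log2 fold changes were 0.93 (SE 0.237, adjusted p = 0.00346) and 0.83 (SE 0.236, adjusted p = 0.00691). By library size alone they were 0.04 and 0.08. Rasa1 lay within 5.02 to 5.22 in LSK but within 1.30 to 4.78 in BM and 2.45 to 4.69 in spleen, again with no overlap with LSK. Its log2 fold changes were −1.75 (SE 0.428, adjusted p = 0.00265) and −1.47 (SE 0.424, adjusted p = 0.00733). Cbl had medians of 6.14, 3.23 and 3.83 and log2 fold changes of −1.90 (SE 0.585, adjusted p = 0.0112) and −1.35 (SE 0.574, adjusted p = 0.0519), of which the spleen value did not pass. Nf1, with medians of 4.12, 3.8 and 4.47, was not called in BM (−0.34, adjusted p = 0.221) or spleen (0.30, adjusted p = 0.276).

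Between the CD11b+ fractions 14% of all genes were called and 1 member, Grb2. With the replicate number as a block, Gab2 was called as well. Grb2 was higher in spleen by 0.74 (SE 0.196, adjusted p = 0.0201). This call was lost without the 3 libraries holding both Xist and Y-linked counts (0.53, adjusted p = 0.136) and without MxCre replicate 2 (adjusted p = 0.0629), Ptpn11D61Y/+ replicate 1 (0.0697) or Ptpn11D61Y/+ replicate 2 (0.0590) of BM CD11b+, or Ptpn11D61Y/+ replicate 1 of spleen CD11b+ (0.0573). Ptpn11 differed by 0.05 (SE 0.314, adjusted p = 1).

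**Figure D3:**
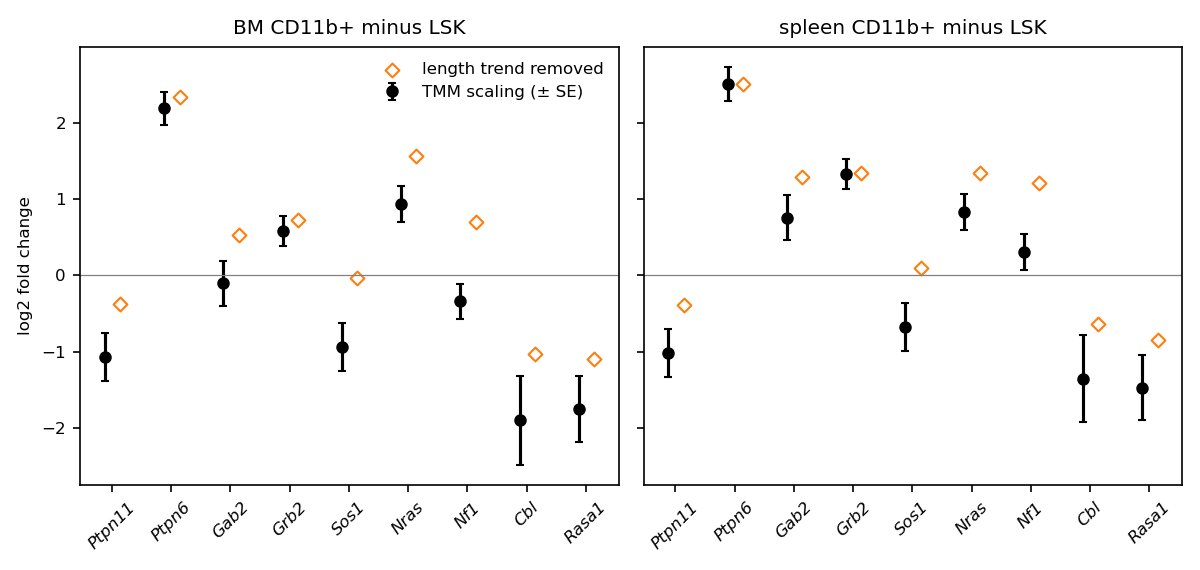
Log2 fold change of each of the 9 genes in BM CD11b+ minus LSK (left) and spleen CD11b+ minus LSK (right), as filled points with TMM scaling (± SE) and as open diamonds after removal of the length trend. Ptpn6 stays above 2 and Rasa1 below 0 either way, whereas Ptpn11 moves from −1.07 to −0.38 in BM and Sos1 from −0.94 to −0.04.

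Transcript length moved with the fraction. Among all genes tested, the median BM CD11b+ minus LSK log2 fold change fell from 0.35 for genes with under 2000 exon bases to 0.02 in the class from 2000, −0.26 from 4000, −0.49 from 6000 and −0.62 from 8000 exon bases, and reached −0.87 for genes with 10000 or more. In spleen the medians at both ends were 0.45 and −0.75. Of the 3 members that rose in BM, Ptpn6 and Grb2 are the shortest of all 9, and Cbl and Sos1, which fell, have over 10000 exon bases. Ptpn11 at 7492 bases and Rasa1 at 7320 lay below the median of their class, and Nf1, the longest member, lay above the median of its own. With a trend over length removed from every library, the median over all genes moved to 0.19 in BM and 0.14 in spleen. The Ptpn11 difference then became −0.38 (adjusted p = 0.116) in BM and −0.39 (adjusted p = 0.106) in spleen, and was not called. Ptpn6 (2.34 in BM) and Rasa1 (−1.09 in BM and −0.85 in spleen) kept their calls, Sos1 (−0.04) and Cbl (−1.04, adjusted p = 0.0522) lost theirs in BM, and Nf1 was called higher (0.70 and 1.21).

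**Figure D4:**
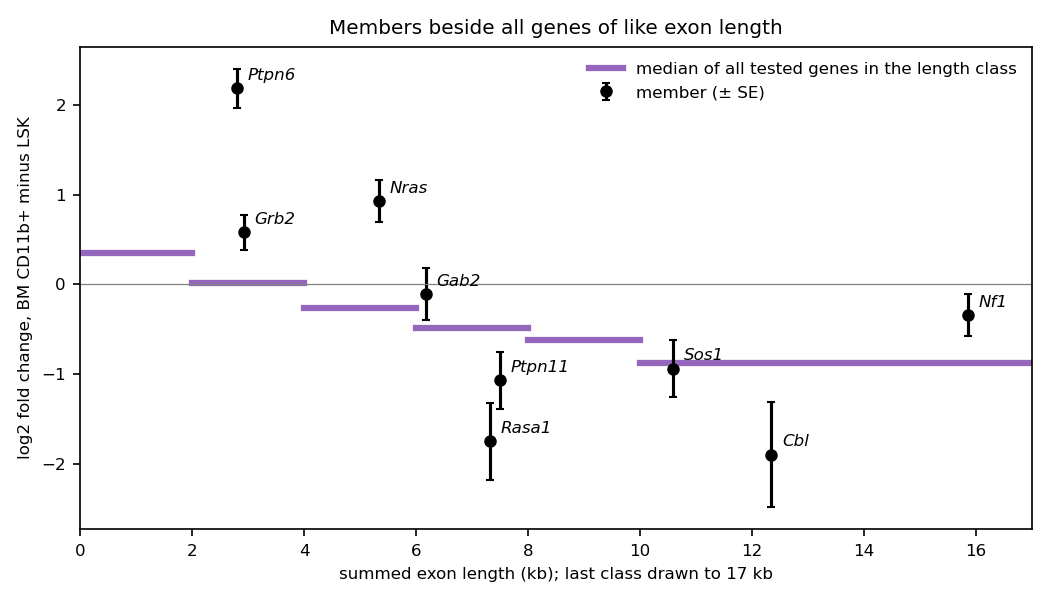
BM CD11b+ minus LSK log2 fold change (± SE) of the 9 genes against summed exon length in kilobases, with bars at the median of all tested genes in each length class. The class medians fall from 0.35 to −0.87. Ptpn11, Rasa1, Cbl and, by little, Sos1 lie below the bar of their class, and Ptpn6, Grb2, Gab2, Nras and Nf1 lie above theirs.

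Levels of different genes were compared per kilobase of exon. In LSK cells the order of median log2 CPM per kilobase was Ptpn6 (5.85), Grb2 (5.76), Ptpn11 (3.95), Nras (3.73), Gab2 (2.70), Cbl (2.51), Rasa1 (2.25), Sos1 (1.58) and Nf1 (0.13). The 7-library ranges of Ptpn6 and Grb2 overlapped, as did those of Ptpn11 and Nras, of Gab2 and Cbl, and of Cbl and Rasa1. Grb2 stood clear of Ptpn11, Nras of Gab2, Rasa1 of Sos1, and Sos1 of Nf1. Ptpn11 was thus at place 3 in LSK, place 4 in BM CD11b+ (2.62) and place 5 in spleen CD11b+ (3.00). Ptpn6 led in both CD11b+ fractions (7.96 and 8.42), followed by Grb2 (6.36 and 7.17) and Nras (4.64 and 4.35), and Cbl moved from place 6 to place 9 (−0.39 in BM and 0.21 in spleen). Ptpn6 stood clear of Grb2 in both CD11b+ fractions. Grb2 stood clear of Nras there too. Below these, Gab2 stood clear of Sos1 in BM CD11b+, and the ranges of the other neighbours in the order overlapped in both fractions.

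The ratio of Ptpn11 to each partner within a library does not depend on scaling between libraries. It is still open to the trend with exon length described above, since the partners differ from Ptpn11 in length. That trend was not removed from any ratio, and its part in the changes below was not tested. Counts per kilobase of Ptpn11 were 0.164 to 0.361 of those of Ptpn6 in LSK (median 0.256), 0.00762 to 0.0786 in BM CD11b+ (median 0.0295) and 0.00571 to 0.0750 in spleen CD11b+ (median 0.0168). These ranges did not overlap between LSK and either CD11b+ fraction, which held for no other partner. In an exact two-sided permutation test with labels exchanged within genotype (adjusted over 24 tests, libraries treated as exchangeable even where they may share an animal, and 0.00278 the smallest unadjusted p), the log2 ratio to Ptpn6 changed by −3.35 in BM and by −3.60 in spleen (adjusted p = 0.00833 for both).

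Against the other partners, Ptpn11 lost most to Grb2 and Nras. Its log2 ratio to Grb2 changed by −1.73 in BM and −2.43 in spleen, and that to Nras by −2.06 and −1.90 (exact permutation test, adjusted p = 0.00833 for all 4). The median ratio to Nras was 1.21 in LSK, 0.336 in BM CD11b+ and 0.296 in spleen CD11b+, so that per kilobase Ptpn11 exceeded Nras in the median LSK library and was below it in the median CD11b+ library. The log2 ratio to Gab2 changed by −0.94 (adjusted p = 0.0424) and −1.83 (adjusted p = 0.00833), and that to Nf1 by −0.77 (adjusted p = 0.0333) and −1.41 (adjusted p = 0.00833). Toward Cbl and Rasa1 the ratio rose in BM, by 1.03 (adjusted p = 0.0296) and 0.80 (adjusted p = 0.0444), but the spleen values of 0.62 (adjusted p = 0.104) and 0.46 (adjusted p = 0.0769) did not pass. Sos1 was the partner whose ratio passed in neither fraction (−0.17 with adjusted p = 0.71 and −0.35 with adjusted p = 0.348). In all, 7 of 8 ratios differed in BM and 5 of 8 in spleen. The share among ratios of Ptpn11 to genes at large was not computed, and 58.4% and 59.9% of all genes were called between these fractions, so nothing particular to the partners is read from these counts. Between spleen and BM CD11b+ cells 0 of 8 differed, the lowest adjusted p being 0.0905 for Gab2. Leaving out the 3 libraries with few detected genes ended the Gab2 call in BM (adjusted p = 0.0762) and brought Rasa1 past the threshold in spleen (adjusted p = 0.0111).

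**Figure D5:**
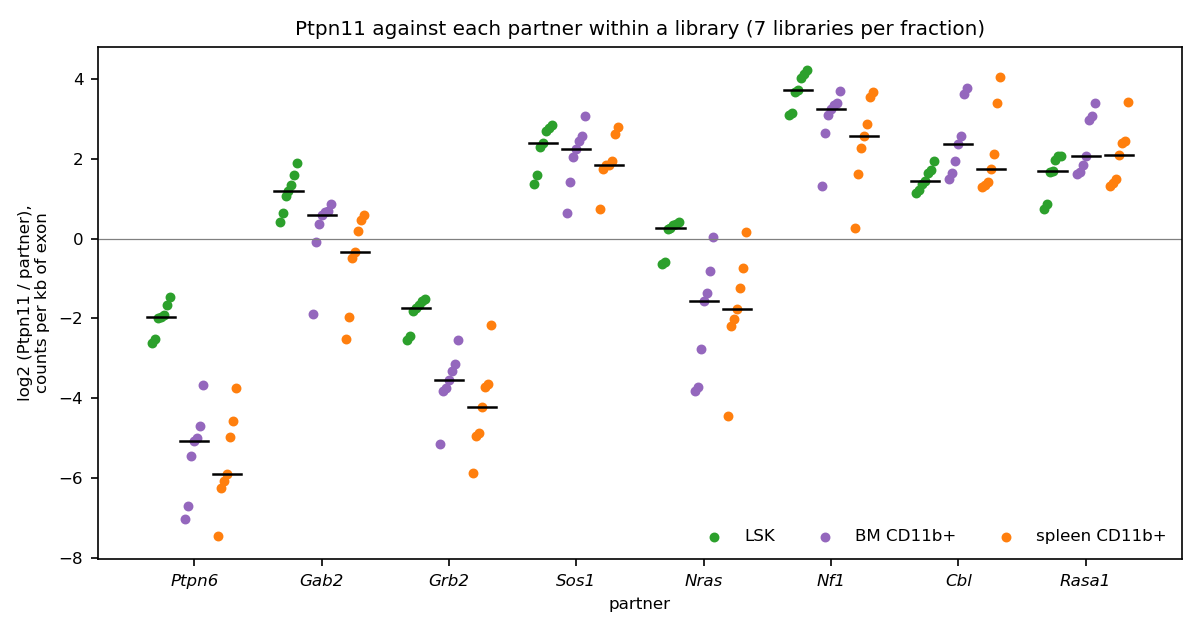
Log2 ratio of Ptpn11 to each of 8 partners, in counts per kilobase of exon, in each of the 7 libraries of a fraction, with a line at the median and 0 marking equal levels. The ratio to Ptpn6 lies between −2.61 and −1.47 in LSK and below that range in all 14 CD11b+ libraries, while the LSK and CD11b+ ranges overlap for each of the other 7 partners. The length trend was not removed from these ratios.

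More of the wider route was higher than lower in CD11b+ cells. In BM CD11b+ minus LSK, 33 of the 69 other pathway genes were called higher and 15 lower, with a median of 0.54, and in spleen minus LSK 36 higher and 13 lower, with a median of 0.58, beside the all-gene medians and call shares given above. Of 7 other RAS proteins 5 were higher and none lower in BM (Rit1 2.63, Hras 2.09), and all 7 were higher in spleen (Rras 3.32, Rras2 3.28). Exchange factors had 3 of 5 higher in BM (Rasgrp4 4.81, Rasgrp1 3.24) and 2 of 5 in spleen (Rasgrp4 4.78, Rasgrp1 4.14), with none lower. Of the 12 GTPase activators and SPRED proteins, which share with Nf1 and Rasa1 the task of holding RAS back, 9 were lower and 1 higher in BM (Spred3 −3.88), and 7 were lower and 2 higher in spleen (Spred3 −2.17). Rasa2 was the activator called higher in BM (1.32), and Rasa2 (0.58) and Rasa3 (0.56) were those called higher in spleen.

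The receptors that dock SHP1 and SHP2 through inhibitory motifs showed the largest values. In both CD11b+ fractions 8 of 9 tested were higher and none lower, led by Pilra (5.52) and Siglece (5.51) in BM and by Cd300lf (5.94) and Siglece (5.90) in spleen. Pecam1, also on endothelial and progenitor cells, was the one not called. Adaptors and docking proteins were mixed, with 5 higher and 4 lower of 13 in BM (Dok3 3.63, Grap 3.29) and 5 higher and 3 lower in spleen (Grap 3.90, Dok3 3.46), and Gab1 was lower in both (−0.70 and −1.29). In the ERK cascade 5 of 11 were higher and 1 lower in BM (Mapk3 2.98, Pebp1 −1.43), and 4 higher and 1 lower in spleen (Mapk3 2.30). The CBL relatives Cblb (−0.35), Cblc (1.97) and Cbll1 (−0.54) did not pass in BM, and in spleen Cblc was higher (5.59) and Cbll1 lower (−1.28). Other tyrosine phosphatases had 6 higher and 1 lower of 9 in BM (Ptpro 3.47, Ptpn18 1.71) and 7 higher and 1 lower in spleen (Ptpro 4.27, Ptpn1 2.21).

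Between the CD11b+ fractions 14 of the 69 genes were higher in spleen and 2 lower, beside 14% of all genes called (1283 higher and 1447 lower). The GTPase activators and SPRED proteins accounted for 5 of the 14 (Rasal2 3.88, Spred3 1.71), with Rasa2 lower (−0.74). The other calls with the largest values in their lists were Rras2 (1.93) and Rras (1.40), Rasgrp3 (1.68), Pecam1 (0.90) with Clec12a lower (−0.94), Cblc (3.61), and Ptpn1 (1.12) and Ptpn22 (0.95).

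Likeness to Ptpn11 was described by the mean of the 3 within-fraction Pearson correlations of log2 CPM, each over 7 libraries that share genotype groups, depth and composition. Among 8773 genes whose mean level reached 3 log2 CPM, the 5 most alike were Tln1 (0.925), Pltp (0.914), Ube4b (0.909), Dock8 (0.908) and Cd300e (0.907). No partner came near them. Cbl was closest at place 949 (0.726), then Rasa1 at 2173 (0.546), Sos1 at 3256 (0.368), Nf1 at 3599 (0.318), Grb2 at 3696 (0.305) and Gab2 at 4386 (0.204). Ptpn6 at place 5836 (−0.03) and Nras at 7082 (−0.21) varied with Ptpn11 in LSK (0.844 and 0.754) and against it in BM CD11b+ (−0.76 and −0.74). BM CD11b+ libraries with low Ptpn11 thus tended to hold high Ptpn6 and Nras, and the 2 lowest Ptpn11 libraries there were also the 2 with the fewest detected genes.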

How the data were processed

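RNA was sequenced from stranded mRNA libraries. Per the labels and the study's methods, reads were trimmed with Trim Galore 0.6.5 and aligned with STAR 2.5.3a to GRCm38 (mm10), with bcl2fastq 2.20.0.422 and FastQC 0.11.9 also named. The counting program, its annotation and its use of strand are not given in the sources used here. The authors deposited raw counts per gene, 1 table per library, which were used as they stand. Gene positions, exon lengths and the printed coding stretch came from GENCODE M21 (GRCm38).

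Counts were fitted with edgeR 4.0.16 in R 4.3.3 (TMM scaling, filterByExpr with a minimum count of 10, robust quasi-likelihood test, 1 coefficient per fraction and genotype, 12 residual degrees of freedom, Benjamini-Hochberg over all genes tested, threshold 0.05). Levels are given as log2 CPM, computed with 2 as the prior count. A log2 fold change from the fit can differ from a difference of group means, at times in sign. For S3 minus Ptpn11D61Y/+ in BM CD11b+ cells, Cbl had a fitted value of 0.21. Its mean log2 CPM there was 3.98 in S3 and 4.34 in Ptpn11D61Y/+. The script was tested on simulated data. Alternatives were DESeq2 1.42.0, limma 3.58.1 (voom), other scalings, no filter, subsets of libraries, a replicate block and each library left out. The fit of the 7 LSK libraries alone, the removal of the length trend and the exclusion of libraries with both Xist and Y-linked counts were added after the data had been seen.

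The 9 members and all lists were chosen with earlier results of these data known. All 9 members were reported throughout, and of the other lists the counts and up to the 2 called genes with the largest absolute log2 fold change, with a few more named after their values were seen (Gab1, Rasa2, Rasa3, Pecam1, Cblb, Dab2ip). Some genes of these lists are not reported here. Ratios were taken after adding 0.5 to each count.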

Additional observations from a re-analysis of the deposited data

Results flagged for a closer look

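Ptpn11 and Cbl were picked out because their difference between the libraries labelled Ptpn11D61Y/+ and the MxCre libraries ran in opposite directions in LSK and BM CD11b+ cells, with every library of one group on the same side of the other in both fractions. For Ptpn11 the difference of mean log2 CPM was −0.86 in LSK cells and 0.71 in BM CD11b+ cells. For Cbl, the ubiquitin ligase, it was −0.64 in LSK cells and 1.47 in BM CD11b+ cells. Summed markers of other cells also differed between these groups in both fractions, as given above, and their part was not tested. The difference between the fractions was not tested for this pair of genotypes. Each group held 2 libraries, and the share of all genes that meet this rule was not computed. Nothing particular to Ptpn11 and Cbl is therefore read from their being picked out. In the fit of all 21 libraries the BM estimates were 0.64 for Ptpn11 and 1.58 for Cbl. Without MxCre replicate 1, the library with 14885 detected genes, they were 0.26 and 2.0, and without MxCre replicate 2, which held both Xist and Y-linked counts, 1.22 and 1.28. With the length trend removed they were 0.02 and 0.78, and without Ptpn11D61Y/+ replicate 2 they were 0.52 and 0.77.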

How the results depend on the processing

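Of the genotype comparisons in the fit of all 21 libraries, each with 0 members called, a fit of only the libraries compared called 2 members for S3 minus MxCre, 3 for S3 minus Ptpn11D61Y/+ and 3 for Ptpn11D61Y/+ minus MxCre in LSK cells, and the 7 LSK libraries alone 2, 5 and 2. DESeq2 called 1 member for Ptpn11D61Y/+ minus MxCre in BM CD11b+ cells (Nras) and 1 for S3 minus MxCre in spleen (Ptpn11), and removal of the length trend 1 each in spleen for S3 minus MxCre (Ptpn11) and Ptpn11D61Y/+ minus MxCre (Nf1). Spleen minus BM CD11b+ (1 member) gave 3 without the libraries of few detected genes, 2 with limma-voom, DESeq2, the length trend removed or the replicate block, 0 without the libraries holding both Xist and Y-linked counts or with only the libraries compared, and 0 to 3 with 1 library left out. In LSK libraries alone, S3 minus MxCre (2 members) gave 1 by library size alone, 1 with no filter and 0 to 2 with 1 library left out. S3 minus Ptpn11D61Y/+ (5) gave 3 by library size alone and 2 to 5, and Ptpn11D61Y/+ minus MxCre (2) gave 0 in each of the 4 fits with 1 library left out, in which 1 group has a lone sample assumed to vary like the others. BM CD11b+ minus LSK stayed at 5 to 7 members and spleen minus LSK at 5 to 8.

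Directions that turned included Nf1 in BM CD11b+ minus LSK (−0.34, not called), which was 0.70 and called with the length trend removed, Grb2 in BM CD11b+ minus LSK by library size alone (−0.25), Ptpn11 in S3 minus Ptpn11D61Y/+ of BM CD11b+ cells (−0.18 to 0.84 with 1 library left out, −0.18 without S3 library 640), and Ptpn11 in spleen minus BM CD11b+ (0.0487), which was −0.0003 with RLE factors and with DESeq2, −0.0349 without the libraries of few detected genes, −0.0107 with the length trend removed and −0.235 to 0.261 with 1 library left out. The cause was not tested. With the replicate number as a block, BM minus LSK held 7 members, spleen minus LSK 7 (gaining Sos1 and Cbl, losing Gab2) and spleen minus BM 2 (gaining Gab2). Libraries of equal number deviated together in some pairs only. The 3 pairs of BM and spleen S3 libraries correlated at 0.11, 0.41 and 0.33, but the MxCre and Ptpn11D61Y/+ pairs reached at most 0.0585, and the pairs with LSK at most 0.0865, so the numbers were not taken to pair the libraries of a whole comparison. For the 8 ratios, a pseudocount of 5 counts left 6 in BM, with Rasa1 lost. Group sizes of 2 and 3 libraries limit every genotype comparison. In LSK cells 2 of the 3 S3 libraries were Xist-positive and the 4 others compared with them were not, so that genotype and sex cannot be fully told apart there.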
